A study of Homo sapiens with 5 samples.

Results

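The Hippo pathway genes described here are 10 genes chosen by name from the 30476 genes of an RNA-seq count table. They comprise the transcriptional coactivators YAP1 and WWTR1 (the gene of the TAZ protein) and the DNA-binding factors TEAD1 and TEAD4. The others are the target or feedback genes CCN1, CCN2, ANKRD1, AMOTL2 and LATS2, and the scaffold gene AJUBA. All 10 were found by their Ensembl identifiers, with CCN1 and CCN2 known in older annotations as CYR61 and CTGF. The cells were TOV21G, a cell line of ovarian clear cell carcinoma in which ARID1A is mutated, and which is sensitive to inhibitors of EZH2, the enzyme of PRC2 that methylates histone H3 at K27. Clones resistant to EZH2 inhibition (EIR) were picked after the concentration of the EZH2 inhibitor GSK126 was raised from 5 to 10, 15 and 20 uM. The groups were parental cells without GSK126 (1 library), untreated EIR cells (clone 3 and clone 4, 1 library each) and GSK126-treated EIR cells (clone 3 and clone 4, 1 library each). Every group carried the same ARID1A-mutated background, each EIR line was a single clone, and the dose of GSK126 in the treated cultures is not given in the labels. No parental replicate and no parental culture with GSK126 was analysed here.

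In the Hippo pathway, the kinases STK3 and STK4 with the scaffold SAV1 activate LATS1 and LATS2, which together with MOB1 proteins phosphorylate YAP and TAZ and keep them out of the nucleus. Unphosphorylated YAP and TAZ do not bind DNA themselves but enter the nucleus and act through TEAD factors, which recognize a short motif in promoters and enhancers. CCN1, CCN2 and ANKRD1 are widely used readouts of YAP and TAZ, while LATS2, AMOTL2 and other targets feed back on the pathway. RNA-seq measures the RNA of these genes and neither phosphorylation nor location of the proteins.

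Promoter sequences of the members were read from the RefSeq table of the GRCh38.p14 assembly, which is a later build than the hg19 build of the counts. Of the 10 members, 7 had an entry (all but TEAD1, TEAD4 and CCN1), with 10 promoters between them. The 250 bases before each start were searched on both strands for the TEAD motif, CATTCC or its reverse complement GGAATG, which cannot overlap each other. The CCN2 window held 3 matches, which began 169, 104 and 95 bases before the start. The ANKRD1 window held 2 matches at 220 and 128 bases, and 1 promoter each of YAP1, AMOTL2 and AJUBA held 1 match, while no promoter of WWTR1 or LATS2 held these letters in this window. Of 35116 promoters of the same length, 11.9% held at least 1 match, 0.928% at least 2 and 0.0797% at least 3. The windows of the targets with the largest differences in the counts, CCN2 and ANKRD1, are shown with the matched window of AMOTL2, a coactivator inhibitor with a smaller difference. They are given 5′ to 3′ on the strand of the gene, with the motif letters in capitals, from chr6:131951373-131951622 (minus strand), chr10:90921088-90921337 (minus strand) and chr3:134374448-134374697 (minus strand). A match is a description of the letters and was not tested as a binding site.
CCN2: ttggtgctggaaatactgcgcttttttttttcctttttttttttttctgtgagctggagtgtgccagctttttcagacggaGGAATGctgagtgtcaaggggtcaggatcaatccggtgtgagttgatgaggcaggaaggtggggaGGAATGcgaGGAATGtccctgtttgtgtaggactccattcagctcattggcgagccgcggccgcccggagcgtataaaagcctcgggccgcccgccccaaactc
ANKRD1: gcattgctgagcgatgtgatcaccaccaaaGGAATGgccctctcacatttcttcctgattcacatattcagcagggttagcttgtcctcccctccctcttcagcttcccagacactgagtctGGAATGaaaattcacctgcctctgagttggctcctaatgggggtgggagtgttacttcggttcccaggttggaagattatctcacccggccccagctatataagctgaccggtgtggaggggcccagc
AMOTL2: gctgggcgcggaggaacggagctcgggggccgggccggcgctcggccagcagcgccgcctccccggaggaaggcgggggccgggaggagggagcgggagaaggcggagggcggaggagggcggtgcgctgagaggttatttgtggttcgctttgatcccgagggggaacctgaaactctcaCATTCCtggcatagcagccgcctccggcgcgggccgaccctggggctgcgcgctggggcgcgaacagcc

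The first question was whether the pathway's coactivators, factors and targets differed between EIR and parental cells. In EIR cells the canonical targets ANKRD1, CCN2 and CCN1 were higher, as were the coactivator gene WWTR1, the feedback gene AMOTL2 and the scaffold gene AJUBA. YAP1, TEAD1, TEAD4 and LATS2 did not pass the test. With DESeq2 (Benjamini-Hochberg adjusted p under 0.05, the 4 EIR libraries against the parental library), 6 of the 10 members rose and 0 fell, against 25.5% of 16288 genes called in either direction (12.4% higher and 13.2% lower). The quasi-likelihood test of edgeR called 5 of the 10, against 11.1% of genes. The median log2 fold change of the 10 members was 0.76, against 0.00 over all genes tested. In 6 members all 4 EIR libraries lay above the parental library and in 1, YAP1, all 4 lay below it. Among 11564 expressed genes these arrangements occurred in 31.9% and 40.6%, respectively. The members were chosen with earlier results of these data known, so these shares are a description. With 1 parental library, the spread came from the EIR libraries, which are pairs from 2 clones. Where a difference is given below it is a log2 fold change, and levels are DESeq2-normalized read counts.

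**Figure D1:**
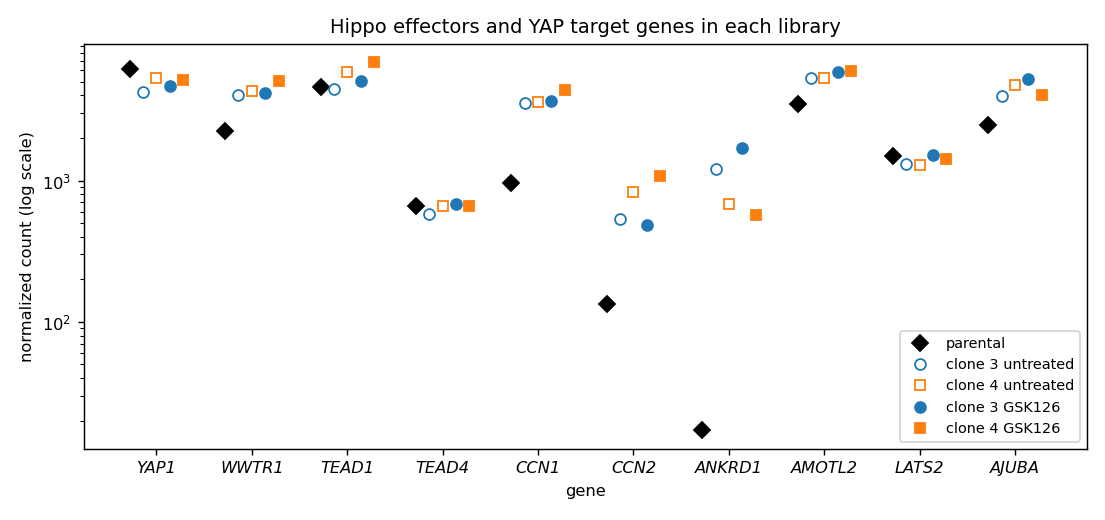
Normalized read counts (log axis) of the 10 genes in the parental library (black diamond), clone 3 (blue circles) and clone 4 (orange squares), untreated (open) or treated with GSK126 (filled), each point being 1 library. ANKRD1 lay at 17.1 in parental cells and between 572 and 1709 in EIR cells, while TEAD4 and LATS2 overlapped between the groups.

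Total counts per library were 25479238 to 30764963, and 15588 to 16432 genes had at least 10 counts. PAX8, a marker of Müllerian epithelium, had at least 3031 counts in every library, and the epithelial keratins KRT8 and KRT18 at least 4331. The clones differed in other epithelial markers. EPCAM had 398 counts in parental cells, 426 and 498 in clone 3 and 0 and 1 in clone 4, and KRT19 had 112, then 1763 and 2022, then 0 and 7. CDH1 had 6, then 108 and 148, then 2 and 4. NAPSA, listed with PAX8 for clear cell carcinoma, had 2, then 53 and 50, then 6 and 4. Summed markers of leukocytes (2 of 3 measured) were 38 counts for the parental library and 71 to 88 for the EIR libraries, those of endothelium (2 of 3 measured) 9 and 15 to 20, and those of fibroblasts (3 of 3, LUM at 0 in 4 libraries) 19 and 20 to 59. The part of these differences in the results was not tested, and in bulk libraries fewer cells of a type and less RNA per cell cannot be told apart.

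Among the coactivators, WWTR1 rose in EIR cells, while YAP1 did not pass the test. YAP1 (ENSG00000137693, chr11:101981178-102104155, plus strand, GRCh37), which encodes the YAP protein, had 6161 normalized counts in parental cells, 4226 and 4647 in untreated and treated clone 3, and 5349 and 5123 in untreated and treated clone 4. All 4 EIR libraries were below the parental library, and the mean was 4836 ± 501 (SD, n = 4). The difference of -0.35 (SE 0.20, 95% interval -0.75 to 0.05) did not pass the test (adjusted p 0.2133 in DESeq2 and 0.2203 in edgeR). WWTR1 (ENSG00000018408, chr3:149235022-149454501, minus strand), which encodes TAZ, had 2242 normalized counts in parental cells, 4058 and 4169 in clone 3, and 4288 and 5022 in clone 4. The EIR libraries did not overlap the parental value and lay close together, at 4384 ± 436 (SD, n = 4). WWTR1 rose by a log2 fold change of 0.97 (SE 0.20, adjusted p 2.358e-05 in DESeq2 and 0.0312 in edgeR), or 1.96-fold.

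The ratio of YAP1 to WWTR1 counts was 2.75 in parental cells and 1.04, 1.25, 1.11 and 1.02 in untreated clone 3, untreated clone 4, treated clone 3 and treated clone 4 (1.11 ± 0.103, SD, n = 4). Per kb of annotated exon, the ratio was 3.64 in parental cells and 1.46 ± 0.136 in EIR cells. Summed per kb of exon, both genes reached 1245 normalized counts in the parental library. The EIR libraries had 1155 to 1413 (1291 ± 117). At this length the parental sum lay within the EIR range, while the makeup of the sum did not. This overlap was absent with the median transcript length, where every EIR library had a higher sum than the parental library. At that length WWTR1 stood at 3447 per kb for the parental library against 6238 to 7720 for the EIR libraries. YAP1 stood at 3761 against 2580 to 3265. Which of the coactivators had the higher level per length depended on the length used. With the exon union YAP1 was above WWTR1 in EIR cells (766 ± 79.4 against 525 ± 52.2 normalized counts per kb), and with the median transcript length it was below (2952 ± 306 against 6739 ± 670). With 1 parental library no test of the ratio itself was run.

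**Figure D2:**
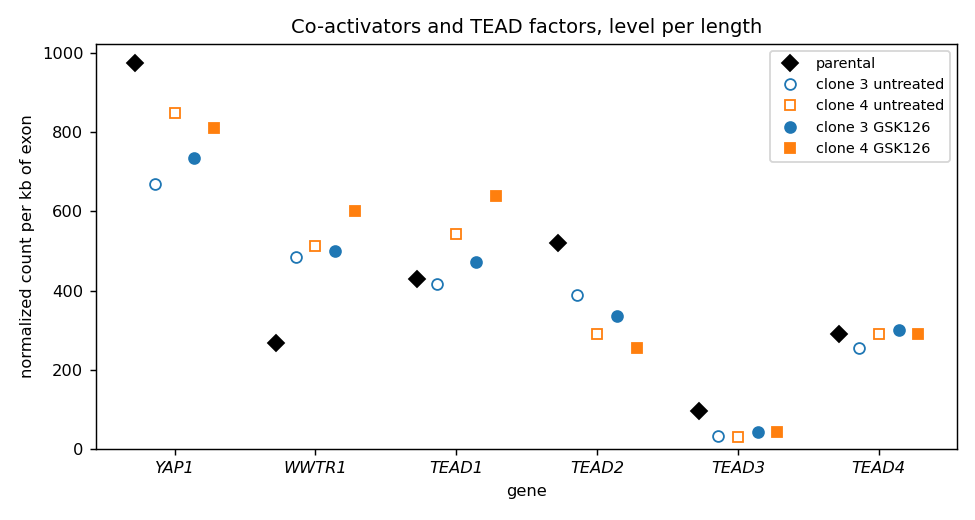
Level per length (normalized counts per kb of annotated exon, linear axis from 0) of the coactivators YAP1 and WWTR1 and the 4 TEAD genes in each library, with parental cells as black diamonds, clone 3 as blue circles and clone 4 as orange squares (open untreated, filled GSK126-treated). WWTR1 lay at 268 in parental cells and 486 to 601 in EIR cells, and TEAD3 at 95.5 and 30.7 to 42.5.

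The TEAD factors recruit YAP and TAZ to DNA. TEAD1 (ENSG00000187079, chr11:12695968-12966284, plus strand) was at 4602 normalized counts in parental cells, 4448 and 5063 in clone 3, and 5808 and 6847 in clone 4. The clone 3 libraries lay on both sides of the parental value and the clone 4 libraries above it, and the difference of all EIR libraries was 0.27 (SE 0.28, DESeq2 adjusted p 0.5388). TEAD4 (ENSG00000197905, chr12:3068496-3149842, plus strand) had 662 in parental cells, 579 and 682 in clone 3, and 657 and 661 in clone 4, with a difference of -0.04 (95% interval -0.44 to 0.36, DESeq2 adjusted p 0.9206). Its EIR libraries overlapped the parental value. After correction for GC content the difference was -0.01 for TEAD1 and 0.54 for TEAD4 (DESeq2 adjusted p 0.1214), so that neither sign is fixed.

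Of the 5 measured TEAD partners outside the members (TEAD2, TEAD3 and 3 VGLL cofactors), 3 received an adjusted p. TEAD3, a further family member, fell, from 291 normalized counts in parental cells to between 93.6 and 129 in EIR libraries (difference -1.37, SE 0.36, adjusted p 0.0014 in DESeq2 and 0.0414 in edgeR). The difference of TEAD3 was -0.91 after GC correction, and its DESeq2 adjusted p was 0.0589 with both libraries of a clone added up. TEAD2, added for comparison after its values were seen, had 1546 normalized counts in the parental library and 764 to 1163 in the EIR libraries (difference -0.71, SE 0.29, DESeq2 adjusted p 0.0603). By clone, TEAD2 differed by -0.93 in clone 4 (adjusted p 1.983e-04 in DESeq2 and 0.0044 in edgeR). In clone 3 it differed by -0.52 (adjusted p 0.0617 in DESeq2 and 0.0394 in edgeR). The share of TEAD1 in the summed level per kb of exon of the 4 TEAD genes was 0.322 in parental cells and 0.380 to 0.521 in EIR cells. This sum was 1335 normalized counts per kb in parental cells and 1093 to 1229 in EIR cells. The lower sum depended on the length used. With the median transcript length, where TEAD1 had 1499 per kb in parental cells and 1449 to 2231 in EIR cells, the summed values overlapped between the groups.

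The largest differences were in the target genes. ANKRD1 (ENSG00000148677, chr10:92671853-92680844, minus strand), a muscle ankyrin repeat protein also induced by YAP in other cells, whose promoter window with 2 motif matches is printed above, had 17.1 normalized counts in parental cells. In clone 3 it had 1209 untreated and 1709 treated, and in clone 4 687 and 572. Every EIR library was far above the parental library and clone 3 was above clone 4. ANKRD1 rose by 5.93 (SE 0.69, adjusted p 1.089e-15 in DESeq2 and 0.0239 in edgeR), or 61.0-fold. The parental value rests on 17 reads, with an exact Poisson 95% interval of 9.9 to 27.2 that covers counting error only.

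CCN2 (ENSG00000118523, chr6:132269316-132272512, minus strand), a secreted matricellular protein, had 133 normalized counts in parental cells, 533 and 488 in clone 3, and 825 and 1075 in clone 4. The groups did not overlap, and here clone 4 was above clone 3. CCN2 rose by 2.46 (SE 0.50, adjusted p 1.614e-05 in DESeq2 and 0.0496 in edgeR). CCN1 (ENSG00000142871, chr1:86046444-86050272, plus strand), a matricellular protein of the same family, had 965 in parental cells, 3556 and 3661 in clone 3, and 3619 and 4384 in clone 4. Its EIR libraries differed little from each other, at 3805 ± 389 (SD, n = 4), and were all above the parental value. CCN1 rose by 1.98 (SE 0.21, adjusted p 1.787e-19 in DESeq2 and 0.0110 in edgeR), or 3.94-fold.

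The feedback and scaffold genes were divided. AMOTL2 (ENSG00000114019, chr3:134074189-134094321, minus strand), an angiomotin family protein that binds and restrains YAP, had 3503 normalized counts in parental cells, 5271 and 5832 in clone 3, and 5282 and 5912 in clone 4. The clones had nearly the same values and none overlapped the parental value. AMOTL2 rose by 0.67 (SE 0.16, adjusted p 4.788e-04 in DESeq2 and 0.0441 in edgeR). The difference was 1.29 after GC correction, and the adjusted p was 0.0692 with both libraries of a clone added up.

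AJUBA (ENSG00000129474, chr14:23440386-23451760, minus strand), a LIM-domain protein that inhibits LATS kinases, had 2486 normalized counts in parental cells, 3961 and 5205 in clone 3, and 4713 and 4047 in clone 4. All EIR libraries were above the parental library with no order between the clones. AJUBA rose by 0.85 (SE 0.23, DESeq2 adjusted p 0.0021), but the adjusted p was 0.0508 in edgeR and 0.0531 with treatment as covariate in DESeq2. It is overlapped on the same strand by the protein-coding gene ENSG00000259132, which had 770 normalized counts in the parental library and 303 to 330 in the EIR libraries, so reads can be divided between them by estimation. The sum of both genes was 3256 in parental cells and 4267 to 5520 in EIR cells, a log2 ratio of 0.56. LATS2 (ENSG00000150457, chr13:21547175-21635725, minus strand), the kinase that phosphorylates YAP and TAZ, had 1490 in parental cells, 1312 and 1527 in clone 3, and 1286 and 1416 in clone 4. The values overlapped, and the difference was -0.11 (95% interval -0.48 to 0.27, DESeq2 adjusted p 0.7393) and 0.34 after GC correction.

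Per kb of annotated exon, the order of the members differed between parental and EIR cells. In the parental library YAP1 was highest at 976 normalized counts per kb, followed by AMOTL2 (541), TEAD1 (430), AJUBA (422), TEAD4 (291), WWTR1 (268), LATS2 (265), CCN1 (261), CCN2 (56.9) and ANKRD1 (9.57). In EIR cells CCN1 was highest at 1029 ± 105, followed by AMOTL2 (860 ± 53.3), YAP1 (766 ± 79.4), AJUBA (762 ± 99.9), ANKRD1 (583 ± 292), WWTR1 (525 ± 52.2), TEAD1 (518 ± 96.5), CCN2 (312 ± 117), TEAD4 (283 ± 19.9) and LATS2 (247 ± 19.6, SD, n = 4 for each). Between neighbours in this order, CCN1 and AMOTL2 had library ranges that did not overlap (962 to 1186 against 814 to 912), and the ranges of all other neighbours did. With the median transcript length the levels of 8 members moved and the order was a different one.

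The next question was whether the clones carried the same differences. Clone 3 against parental cells and clone 4 against parental cells share the parental library, so their values are given side by side. In clone 3, DESeq2 called 7 of the 10 members (6 higher, and YAP1 lower), against 29.2% of all genes, and edgeR 7, against 32.7%. In clone 4, DESeq2 called 7 (all higher, including TEAD1), against 32.9%, and edgeR 6, against 35.3%. WWTR1 rose by 0.88 (SE 0.18) in clone 3 and 1.05 (SE 0.18) in clone 4. CCN1 rose by 1.90 (SE 0.19) and 2.05 (SE 0.19), AMOTL2 by 0.66 (SE 0.17) and 0.68 (SE 0.17), and AJUBA by 0.88 (SE 0.20) and 0.82 (SE 0.20). YAP1 differed by -0.47 (SE 0.17, DESeq2 adjusted p 0.0184) in clone 3 and by -0.23 (SE 0.17, 0.2963) in clone 4. TEAD1 differed by 0.05 (SE 0.18, DESeq2 adjusted p 0.8979) in clone 3 and by 0.46 (SE 0.18, 0.0364, but 0.0688 in edgeR) in clone 4. Without the GSK126-treated clone 3 library, which leaves 1 library of that clone that is assumed to vary like the others, 4 of 10 members were called in clone 3, and YAP1, AMOTL2 and AJUBA were not.

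**Figure D3:**
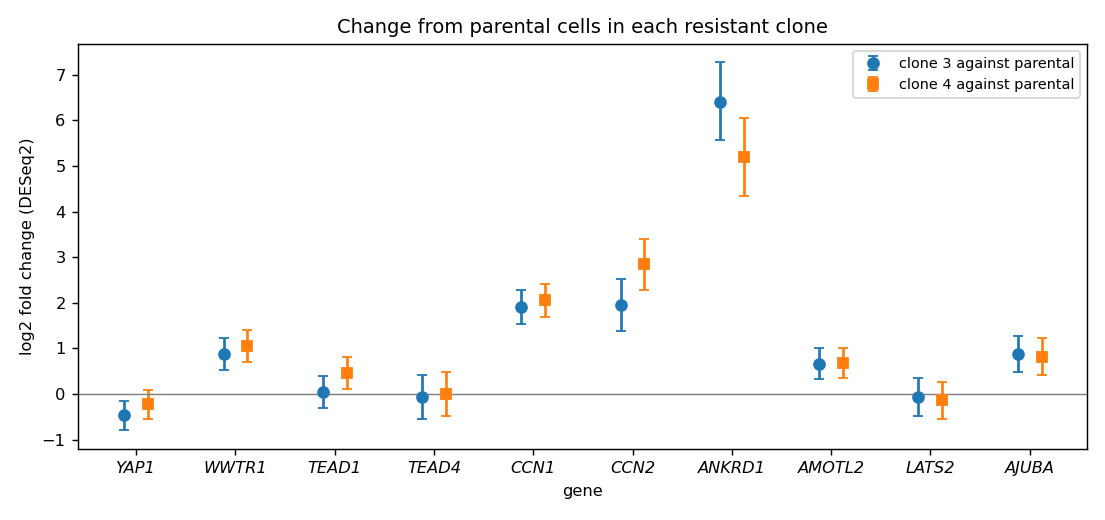
Log2 fold change (DESeq2, with 95% intervals as bars) of each gene in clone 3 (blue circles) and clone 4 (orange squares) against the same parental library. The clones were close for WWTR1, CCN1, AMOTL2 and AJUBA, while CCN2 stood at 1.94 and 2.84 and ANKRD1 at 6.41 and 5.20.

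The clones differed from each other in CCN2 and ANKRD1, in opposite directions. In the 4 EIR libraries with treatment as covariate, DESeq2 called 2 of the 10 members between clone 4 and clone 3, against 9.83% of genes, and edgeR called the same number, against 14.9%. CCN2 was higher in clone 4 by 0.88 (SE 0.24, adjusted p 0.0043 in DESeq2 and 0.0126 in edgeR) and ANKRD1 was lower, at -1.20 (SE 0.24, adjusted p 1.424e-05 in DESeq2 and 0.0073 in edgeR). As both clones are set against the same parental library, this is also the test of the difference between their changes. The CCN2 call was not made by DESeq2 without untreated clone 3 (adjusted p 0.0542) or without treated clone 3 (0.1517), in each case with a difference of at least 0.802. The ratio of ANKRD1 to CCN1 counts was 0.0177 for parental cells, 0.340 and 0.467 for clone 3, and 0.190 and 0.131 for clone 4. For the other 8 members no difference was called, with 95% intervals such as -0.16 to 0.50 for WWTR1, -0.20 to 0.48 for CCN1 and -0.32 to 0.32 for AMOTL2. The epithelial markers EPCAM and KRT19 separated the same libraries, and their part in the CCN2 and ANKRD1 difference was not tested.

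GSK126 exposure of EIR cells was then compared with untreated EIR cells. None of the 10 members was called by DESeq2, which called 1 gene in all (0.00335% of 29847, with 117 at an unadjusted p under 0.05). None was called by edgeR either, which called 0 genes (0.0% of 16616, with 86 at an unadjusted p under 0.05). The estimates for the members lay between 0.02 (YAP1) and 0.25 (ANKRD1), with a median of 0.15 against 0.03 over all genes. The intervals leave room for changes in either direction, -0.82 to 1.33 for ANKRD1, -0.71 to 1.09 for CCN2 and -0.26 to 0.56 for CCN1. The clone was not part of this fit, so the intervals also hold the difference between the clones, which was called for ANKRD1 and CCN2. Within clone 3, ANKRD1 differed by 0.50 and CCN2 by -0.13 between the treated and the untreated library, and within clone 4 by -0.26 and 0.38 (log2 of normalized counts plus 0.5, 1 library each).

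Further target genes were examined with a list of 22 YAP and TAZ target genes, of which 5 are members. Of the 17 others, DESeq2 called 7 higher (IGFBP3, RBMS3, FJX1, PTPN14, GADD45A, DOCK5 and CRIM1) and 1 lower (MYOF), and 9 were not called. These calls are 47.1% of the 17, against 25.5% of all genes, and the median log2 fold change was 0.71 against 0.00 over all genes. As the list was chosen with earlier results of these data known, these shares are a description. In edgeR, 2 were higher (CRIM1 and GADD45A) and 1 lower (MYOF), or 17.6% against 11.1% of all genes. IGFBP3, a secreted binding protein of insulin-like growth factors, had 606 normalized counts in parental cells, 5494 and 6568 in clone 3, and 22816 and 28287 in clone 4. All EIR libraries were above the parental library and the clones did not overlap. The difference was 4.70 (SE 1.18, adjusted p 6.774e-04 in DESeq2 and 0.0791 in edgeR), with separate values of 3.31 in clone 3 and 5.40 in clone 4. RBMS3, an RNA-binding protein, had 484 in parental cells, 923 and 875 in clone 3, and 1563 and 1576 in clone 4 (1.35, SE 0.43, adjusted p 0.0098 in DESeq2 and 0.1074 in edgeR). FJX1, a Four-jointed homologue, had 101 normalized counts in the parental library against 187 to 252 (1.21, SE 0.33, adjusted p 0.0025 in DESeq2 and 0.0592 in edgeR). MYOF, a membrane repair protein, had 29286 in parental cells and 14349 to 19161 in EIR cells (-0.86, SE 0.22, adjusted p 0.0012 in DESeq2 and 0.0457 in edgeR). The direction of the list was thus not shared by every member of it, as 12 of the 17 estimates were positive and 5 negative. With treatment as covariate in DESeq2, RBMS3 (adjusted p 0.0571), FJX1 (0.1005) and PTPN14 (0.1762) did not pass. In clone 3, DESeq2 called 9 higher and 3 lower (MYOF, CCDC80 and ARHGEF17), or 70.6% against 29.2% of all genes. There edgeR called 6 higher and 4 lower (the same and F3), or 58.8% against 32.7%. In clone 4, each tool called 10 higher and 1 lower (MYOF), or 64.7% against 32.9% (DESeq2) and 35.3% (edgeR). Between the clones, DESeq2 called 5 of the 17 higher in clone 4 (AXL, IGFBP3, NT5E, PTPN14 and RBMS3) and 0 lower, or 29.4% against 9.83% of all genes. In edgeR 4 were higher (all of these but PTPN14) and 0 lower, or 23.5% against 14.9%. Of these, AXL and NT5E were chosen for mention after their values were seen.

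**Figure D4:**
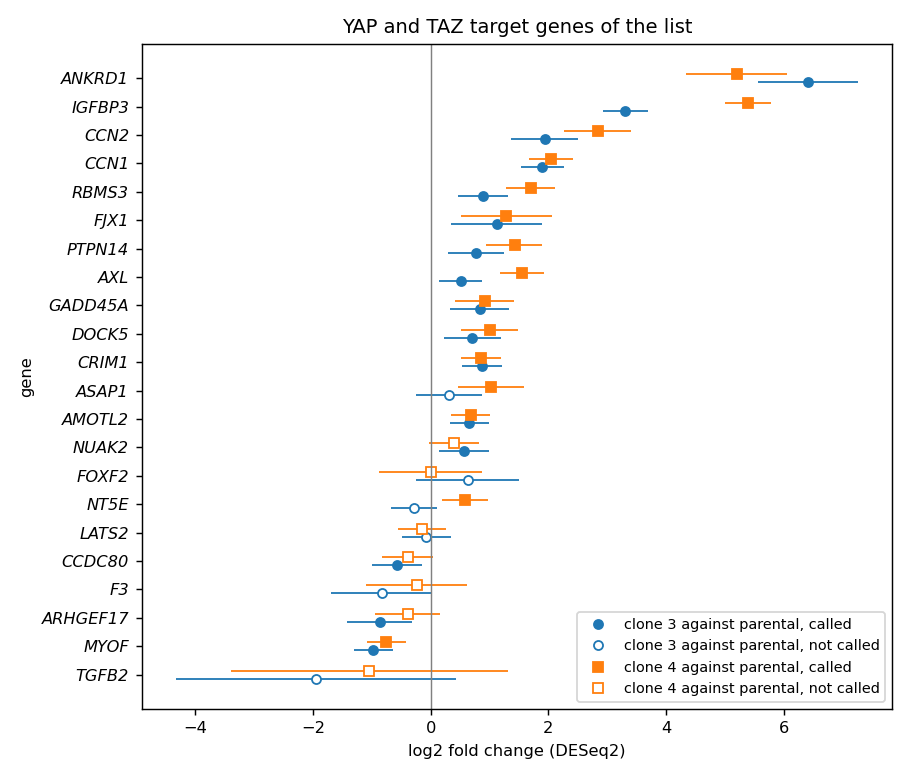
Log2 fold change (DESeq2, bars are 95% intervals) of 22 YAP and TAZ target genes in clone 3 (blue circles) and clone 4 (orange squares) against the parental library, ordered by the difference of all EIR libraries. Filled symbols passed an adjusted p of 0.05. ANKRD1, IGFBP3, CCN2 and CCN1 lay farthest to the right, and MYOF was lower in both clones.

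Of 17 listed genes of the kinase cascade other than LATS2, 16 received an adjusted p, and DESeq2 called 3 higher and 2 lower (median 0.23). This is 31.2%, near the 25.5% of all genes called. In edgeR 1 of 17 was higher and 1 lower (11.8%, near the 11.1% of all genes), so the counts are no result about the cascade and the genes are given as single values. MAP4K3, an activating kinase upstream of LATS, had 1249 normalized counts in the parental library and 1967 to 2353 in the EIR libraries (0.77, SE 0.19, adjusted p 4.263e-04 in DESeq2 and 0.0390 in edgeR). MAP4K2, of the same kinase family, had 603 and 148 to 254 (-1.55, SE 0.36, adjusted p 2.465e-04 in DESeq2 and 0.0330 in edgeR). After GC correction the difference of MAP4K3 was 0.24 (DESeq2 adjusted p 0.3667). MOB1B, a LATS coactivator, and STK38L, a kinase related to LATS, differed by 0.72 and 0.50 and TAOK2 by -0.40 (DESeq2 adjusted p 0.0493, 0.0447 and 0.0290), and none of these passed in edgeR. The core genes STK3, STK4, LATS1 and SAV1 were not called in EIR cells in DESeq2 or edgeR. By clone, LATS1 was higher in clone 4 (0.74, adjusted p 0.0084 in DESeq2 and 0.0298 in edgeR) and not called in clone 3 (0.38). SAV1 was lower in clone 3 (-0.60, adjusted p 0.0121 in DESeq2 and 0.0096 in edgeR) and not called in clone 4 (-0.17). Neither of these calls was made under every alternative.

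Of 20 measured upstream and scaffold genes other than AMOTL2 and AJUBA, 19 received an adjusted p, and DESeq2 called 4 higher (PTPN14, FRMD6, PALS1 and NF2) and 3 lower (WTIP, LLGL1 and AMOTL1), or 36.8% against 25.5% of all genes, with a median of -0.07. In edgeR 1 of 19 was higher (PALS1) and 2 lower (WTIP and LLGL1), or 15.8% against 11.1% of all genes. PTPN14, a phosphatase that binds YAP and that is on the target list as well, had 1436 normalized counts in parental cells, 2488 and 2414 in clone 3, and 2983 and 4738 in clone 4 (1.14, SE 0.42, adjusted p 0.0294 in DESeq2 and 0.1481 in edgeR). All EIR libraries were above the parental library. WTIP, a LIM-domain relative of AJUBA, had 540 in parental cells and 120 to 186 in EIR cells (-1.97, SE 0.38, adjusted p 4.364e-06 in DESeq2 and 0.0217 in edgeR). AMOTL1, the angiomotin paralogue of AMOTL2, had 11915 and 5999 to 8076 (-0.68, SE 0.24, adjusted p 0.0212 in DESeq2 and 0.0809 in edgeR). In each of these families a further listed gene was not called, AMOT among the angiomotins (-0.07, DESeq2 adjusted p 0.9348) and LIMD1 among the relatives of AJUBA (-0.23, DESeq2 adjusted p 0.5979). LLGL1, a polarity scaffold, had 737 and 268 to 323 (-1.36, SE 0.23, adjusted p 1.901e-07 in DESeq2 and 0.0186 in edgeR), and differed by -0.86 after GC correction. FRMD6 and PALS1 differed by 0.71 and 0.67 (DESeq2 adjusted p 0.0166 and 1.050e-04), and after GC correction by 0.53 and 0.13, neither of which passed. For comparison, of 13 tested genes of a list of SRF and MRTF targets, a programme of cytoskeletal genes, DESeq2 called 3 higher and 2 lower (38.5%, against 25.5% of all genes), with a median of 0.33. In edgeR 14 were tested and 1 was lower (7.14%, against 11.1% of all genes).

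Genes near a member on its chromosome differed in some regions. Within 10 Mb on either side of CCN1 the median log2 fold change of 63 expressed genes was 0.49, and it was 0.34 around YAP1 (64 genes), 0.28 around CCN2 (45 genes), 0.23 around WWTR1 (53 genes), 0.06 around AMOTL2 (86 genes) and -0.14 around AJUBA (87 genes). Around ANKRD1 it was -0.39 (87 genes), as over the whole of chromosome 10 (-0.42). The differences of WWTR1, CCN1, CCN2 and ANKRD1 were larger than these medians. The estimate for YAP1 was -0.35, which did not pass the test, where the median of its neighbours was 0.34. The part of the regional values in the results was not tested.

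As a description, the expressed gene with the most similar profile was found for each member among 11367 candidates, by the root mean square difference of log2 profiles over the 5 libraries, each centred on its own mean. For CCN2 it was LINC00504 (0.047, against a spread of CCN2 itself of 1.038), with 558 normalized counts in parental cells, 2117 and 2072 in clone 3, and 3477 and 4217 in clone 4. For ANKRD1 it was SH3GL3 (0.180, against 2.369), with 4.03 in parental cells, 318 and 352 in clone 3, and 179 and 174 in clone 4. For WWTR1 it was CLOCK (0.041), for YAP1 TTC23 (0.022), for AMOTL2 DICER1 (0.018), for AJUBA RAD50 (0.047), for CCN1 the pseudogene KLRA1P (0.051), for TEAD1 ANKRD10 (0.041), for TEAD4 TBPL1 (0.032) and for LATS2 KAT14 (0.028). With 5 libraries many genes can be this close.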

How the data were processed

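Total RNA from 1 parental and 4 EIR libraries of TOV21G cells was sequenced with a stranded kit. The authors aligned reads to hg19 with bowtie2 and estimated counts per gene with RSEM (version 1.2.3 in the submitters' processing notes). The authors deposited these estimated counts without normalization and as whole numbers. The annotation release and whether counting used the strand are not given in the sources used here, so reads of overlapping genes (AJUBA, above) may be divided by estimation. The parental column was recognized as the one whose name carries no clone tag.

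Symbols, coordinates, exon lengths and GC content came from GENCODE 44 mapped to GRCh37, in which 29203 of 30476 identifiers (95.8%) were found. Of the listed genes, RASSF5 and VGLL1 were not analysed here. DESeq2 1.42.0 (R 4.3.3, two-sided Wald test, 5% false discovery rate, no filter beyond its own) was the main test, after the methods of the study, and edgeR 4.0.16 (quasi-likelihood) the alternative. The clone fits used 3 lines (parental, clone 3, clone 4). Code was tested on simulated data. Expressed genes had a mean normalized count of 100 or more. Libraries of a clone are not separate clones, so p-values measure only the spread between these libraries. Counting intervals (95%) cover counting error only.

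The clone number pairs untreated and treated libraries, because both come from the same clone. Same-clone libraries deviated together from their group means (r = 0.862 over 11564 genes). The clone number was therefore used as a replicate block in alternatives, of which the one with edgeR was chosen after seeing the data.

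The members and lists were chosen with earlier results of these data known. All members were named, and from each other list up to 3 of the largest rises and falls among called genes that were expressed in this sense; of the SRF list only counts were given. Other genes named beside a list's count were chosen after their values were seen.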

Additional observations from a re-analysis of the deposited data

Results flagged for a closer look

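CCN1 in the 4 EIR libraries was flagged because the gap from its highest library, GSK126-treated clone 4 at 4384 normalized counts, to the next was 0.874 of the whole range, above Dixon's 95% critical value for 4 samples. Chance flags about 1 in 20 groups.

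Between the clones, which share the parental library, DESeq2 called a difference for CCN2 (0.88 higher in clone 4 on the log2 scale), ANKRD1 (-1.20), PTPN14 (0.61, adjusted p 0.0338, but 0.0701 in edgeR), IGFBP3 (2.07) and RBMS3 (0.80).

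The untreated and treated libraries of the clones moved in opposite directions for 4 members, with 1 library each, and the difference was not tested. The change under GSK126 in clone 4 minus that in clone 3 was -0.20 for YAP1, 0.51 for CCN2, -0.76 for ANKRD1 and -0.61 for AJUBA (log2).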

How the results depend on the processing

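The rises of WWTR1, CCN1, CCN2 and ANKRD1 in EIR cells passed under every alternative run, with adjusted p of at most 0.0312, 0.0110, 0.0496 and 0.0239, and 5 or 6 of 10 members were called in all of them. Leaving out each EIR library in turn gave 4 to 7 members called in clone 3, the lowest without its GSK126-treated library, and 1 to 3 between the clones, the lowest without either clone 3 library. Over all genes, edgeR called 2024 genes (799 higher, 1225 lower) against 4157 in DESeq2 (2014 higher, 2143 lower), and 1914 were called with the libraries of each clone summed and 1998 with treatment as covariate. GC correction moved the median of all genes in clone 4 from -0.02 to 0.10. The cause of the changes below was not tested.

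GC correction turned the EIR difference for TEAD1 (-0.008), TEAD4 (0.536), LATS2 (0.344) and TAOK2 (0.116), in clone 3 for TEAD1 (-0.265), TEAD4 (0.394) and LATS2 (0.302), in clone 4 for TEAD4 (0.667, adjusted p 0.0223) and LATS2 (0.386), and between the clones for LATS2 (0.083) and AJUBA (0.021). TEAD4 also turned in EIR cells with total count scaling (0.035) and at least 10 counts in every library (0.018), and in clone 4 with these (0.076 and 0.060). Leaving out each EIR library in turn, values of both signs were found for TEAD4 in EIR cells (-0.072 to 0.011), in clone 3 for TEAD1 (-0.050 to 0.142), TEAD4 (-0.195 to 0.047) and LATS2 (-0.184 to 0.040), and between the clones for TEAD4 (-0.063 to 0.159), AMOTL2 (-0.080 to 0.078), LATS2 (-0.191 to 0.012), AJUBA (-0.262 to 0.116) and CCN1 (-0.004 to 0.268). Under GSK126 the ranges were -0.134 to 0.188 for YAP1, -0.009 to 0.241 for WWTR1, -0.025 to 0.400 for TEAD1, -0.482 to 0.639 for CCN2, -0.757 to 0.839 for ANKRD1 and -0.125 to 0.256 for AJUBA.

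With the replicate block (clone number) 0 of 10 members were called under GSK126, also with GC correction and with edgeR, and the block changed no call of a member. The block moved the DESeq2 calls over all genes from 1 to 4. The parental count of ANKRD1 and the single parental library limit the precision of every difference from parental cells.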
